A study of Mus musculus with 2 samples.

Results

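Receptor genes of T cell costimulation and checkpoint control, with Cd52, were followed in a mouse T cell leukemia (T-ALL) named ALL211. They were chosen by name, and all 10 were found by Entrez identifier among the 27179 genes of the deposited count table: Cd27, Cd28, Ctla4, Pdcd1, Lag3, Icos, Btla, Tnfrsf4, Tnfrsf9 and Cd52. The leukemia carries Vav-tTA and TRE-GFP-shIkaros, so that a transactivator expressed from the blood-cell Vav promoter drives GFP together with a hairpin against Ikaros, and doxycycline (Dox) silences both. Cells were sorted by FACS from spleens of leukemic recipients. The Dox group was 1 library of GFP-mid cells from animals given Dox for 3 days, and the untreated group was 1 library of GFP-high cells. Both libraries carry the hairpin transgenes and come from the same primary leukemia. The design text speaks of 2 mice per condition, and no source used here says whether their RNA was pooled.

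A T cell needs a second signal beside its antigen receptor, and the surface proteins described here pass that signal on or hold it back. Cd28 and Icos, with their inhibitory relatives Ctla4 and Pdcd1, belong to the immunoglobulin superfamily, as do the inhibitory receptors Btla and Lag3. Cd27, Tnfrsf4 (OX40) and Tnfrsf9 (4-1BB) belong to the tumour necrosis factor (TNF) receptor superfamily and signal through TRAF adaptors. Cd52 encodes a very short peptide held in the membrane by a GPI anchor and is abundant on lymphocytes.

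The Dox library held 16484613 counts and the untreated library 16960042. With 1 library per condition a difference has no replicate check, and neither a test nor a p-value is given. Each ratio below is of Dox over untreated, with a 95% interval that covers counting error only and treats reads as independent, which PCR copies are not. Treatment, sorting gate and animal all differ between the libraries and cannot be told apart. In bulk RNA a smaller number of expressing cells and less RNA per cell also cannot be told apart. Ikzf1, the gene that encodes Ikaros and is targeted by the hairpin, was at 1229 counts per 1e6 (CPM) in the Dox library and 120.5 CPM in the untreated library, the direction the labels give. All 12 genes of a T cell identity list were above 1 CPM in both libraries, and 10 of them had a positive log2 fold (median of the list 0.69), with 2 past 2-fold upward and 0 downward. Of all genes with 1 CPM or more in either library, 13.6% were past 2-fold upward and 13.0% downward. The part of the shift of the T cell identity list in the differences of the receptor genes was not tested. The B cell genes Pax5 and Ebf1 had 0 counts in both.

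By log2 fold with a prior count of 2, the Dox level was 2-fold or more above the untreated level for 6 of the 10 genes: Lag3, Btla, Cd52, Cd27, Tnfrsf9 and Icos. The same held for 13.6% of the 12125 genes that reached 1 CPM in either library, 13.0% lay 2-fold or more below, and the median log2 fold was -0.01. Of the receptor genes, 0 lay that far below, and 4 lay within 2-fold: Ctla4, Cd28 and Tnfrsf4 on the higher side, and Pdcd1 on the lower side. The counting interval lay wholly above 2-fold for 5 of the 10 genes, against 9.11% of all tested genes, and wholly more than 2-fold below for 0, against 8.38%. It lay above 1 for 8 of the 10 genes, against 38.7% of tested genes. All 10 genes passed the filter of 1 CPM, but Lag3 and Tnfrsf9 passed it through the Dox library alone and so had to be higher there. Of the 8 genes with at least 1 CPM in the untreated library, 4 were past 2-fold upward and 0 downward, where 9.67% and 13.8% of the 11477 such genes of the whole table were.

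**Figure D1:**
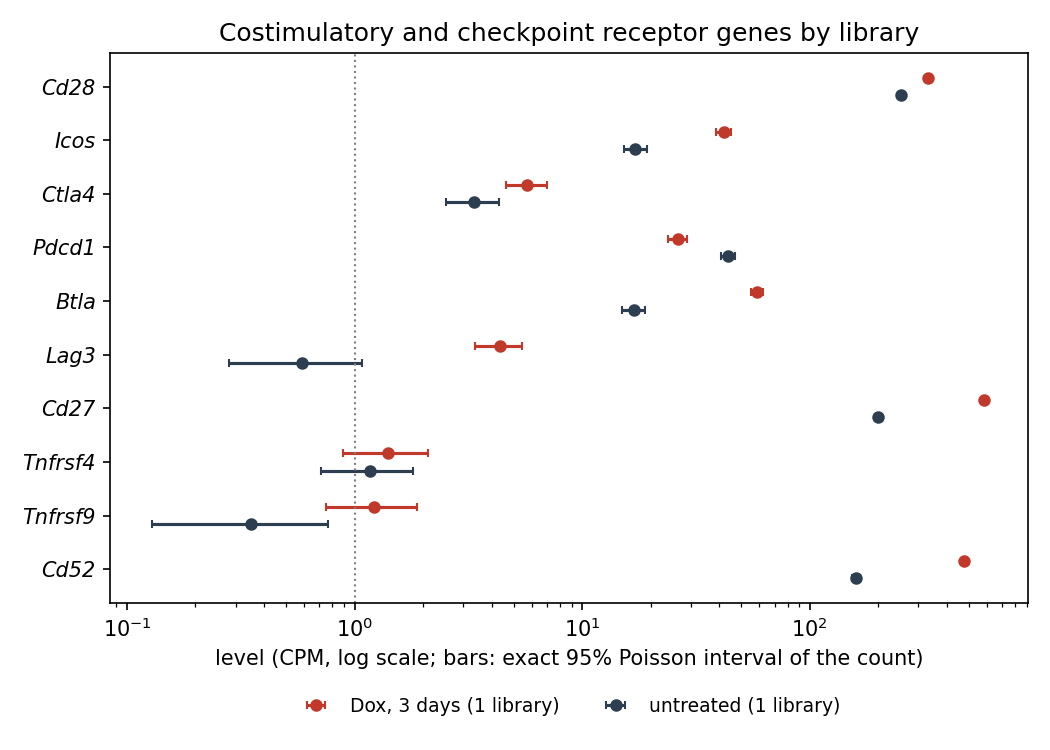
Level of each receptor gene in CPM (log axis) in the Dox library (red, upper point) and the untreated library (dark, lower point), 1 library each, with the exact 95% Poisson interval of the count and a dotted line at 1 CPM. Cd27, Cd52 and Cd28 lie far to the right in both libraries, Pdcd1 is the gene whose Dox point lies left of its untreated point, and the points of Tnfrsf4 have overlapping intervals.

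Cd27 (Entrez 21940; chr6:125232620-125237136, minus strand, GRCm38), the receptor for CD70, which is on from the thymus onward and supports survival of T cells, had 9524 counts in the Dox library and 3418 in the untreated library. Its level was 581.5 CPM with Dox and 200.2 CPM without, 2.90-fold higher (interval 2.79 to 3.02, log2 fold 1.54). In the whole table, 6.91% of tested genes had a log2 fold at least as high.

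The other TNF receptor superfamily members were close to the limit of detection. Tnfrsf4 (Entrez 22163; chr4:156013595-156016613, plus strand), whose product OX40 appears on activated T cells, had 23 counts in the Dox library and 20 in the untreated library. The ratio of 1.20 had an interval of 0.63 to 2.30, so that no difference was detectable at this depth. The gene body overlaps that of Sdf4, which had 4748 counts in the Dox library and 3725 in the untreated library. No overlap between annotated exons of Tnfrsf4 and Sdf4 was found, and no source used here gives the strand setting of the counting. Tnfrsf9 (Entrez 21942; chr4:150920155-150946104, plus strand), which encodes 4-1BB, another receptor of activated T cells, had 20 counts with Dox and 6 without, a 3.47-fold ratio (interval 1.35 to 10.6). Relative to Cd27 within each library and per length, Tnfrsf4 stood at 0.33% in the Dox library and 0.80% in the untreated library, and Tnfrsf9 at 0.149% with Dox and 0.125% without. The change in the ratio to Cd27 was 0.413 for Tnfrsf4 (exact interval 0.216 to 0.793). For Tnfrsf9 it was 1.2 (0.463 to 3.64), which did not exclude 1.

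Cd52 (Entrez 23833; chr4:134093538-134095073, minus strand) moved by nearly the same factor as Cd27. It had 7773 counts in the Dox library and 2729 in the untreated library, or 474.6 CPM with Dox and 159.9 CPM without, 2.97-fold higher (interval 2.84 to 3.10, log2 fold 1.57). The ratio of Cd27 to Cd52 per length was 39.1% in the Dox library and 40.0% in the untreated library, and the change in that ratio was 0.978 (exact interval 0.922 to 1.04), which did not exclude 1. Exons of Crybg2 on the opposite strand overlap those of Cd52, and Crybg2 had 336 counts in the Dox library and 100 in the untreated library, few beside the counts of Cd52.

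Members of the CD28 family did not move together. Cd28 (Entrez 12487; chr1:60746388-60773359, plus strand), the main costimulatory receptor of resting T cells, had 5416 counts in the Dox library and 4297 in the untreated library. At 330.7 CPM with Dox and 251.7 CPM without, it was 1.31-fold higher (interval 1.26 to 1.37), and 30.8% of tested genes had a log2 fold at least as high. Icos (Entrez 54167; chr1:60960773-61000322, plus strand), the inducible costimulator that binds ICOS ligand, had 685 counts in the Dox library and 292 in the untreated library. Its level of 41.8 CPM with Dox and 17.1 CPM without was 2.45-fold higher (interval 2.13 to 2.81).

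Ctla4 (Entrez 12477; chr1:60909025-60915832, plus strand), which competes with Cd28 for the ligands CD80 and CD86, lies between Cd28 and Icos on the chromosome. It had 94 counts in the Dox library and 57 in the untreated library, or 5.74 CPM with Dox and 3.34 CPM without, 1.72-fold higher (interval 1.22 to 2.43). Per length, Ctla4 reached 3.88% of the level of Cd28 in the Dox library and 2.97% in the untreated library, a change of 1.31 whose exact interval of 0.929 to 1.86 did not exclude 1. Icos reached 16.8% of the level of Cd28 with Dox and 9.02% without, a change of 1.86 (1.61 to 2.15). The ratio to Cd28 thus changed beyond counting error for Icos, whereas for Ctla4 no change was detectable at this depth.

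Pdcd1 (Entrez 18566; chr1:94038305-94052553, minus strand), which encodes the inhibitory receptor PD-1, was the gene with the opposite direction. It had 430 counts in the Dox library and 748 in the untreated library. Its level was 26.3 CPM with Dox and 43.8 CPM without, 1.67-fold lower (ratio 0.599, interval 0.531 to 0.676, log2 fold -0.74). This was the one receptor gene of the 10 whose interval lay wholly below 1, and 40.0% of all tested genes had such an interval. A log2 fold at least as low was found in 19.1% of tested genes.

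The other inhibitory receptors of the immunoglobulin superfamily were higher in the Dox library. Btla (Entrez 208154; chr16:45223705-45252895, plus strand), which binds the TNF receptor family protein HVEM, had 959 counts in the Dox library and 287 in the untreated library. At 58.6 CPM with Dox and 16.8 CPM without, it was 3.48-fold higher (interval 3.05 to 3.99, log2 fold 1.79), and 5.43% of tested genes had a log2 fold at least as high. Lag3 (Entrez 16768; chr6:124904359-124912434, minus strand), a relative of Cd4 that binds MHC class II, had 71 counts in the Dox library and 10 in the untreated library. Its level was 4.34 CPM with Dox and 0.586 CPM without, 7.40-fold higher with a wide interval (3.80 to 16.1). Pdcd1 stood at 437.0% of the level of Btla per length in the untreated library but at 75.2% in the Dox library, a change of 0.172 (exact interval 0.143 to 0.206).

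**Figure D2:**
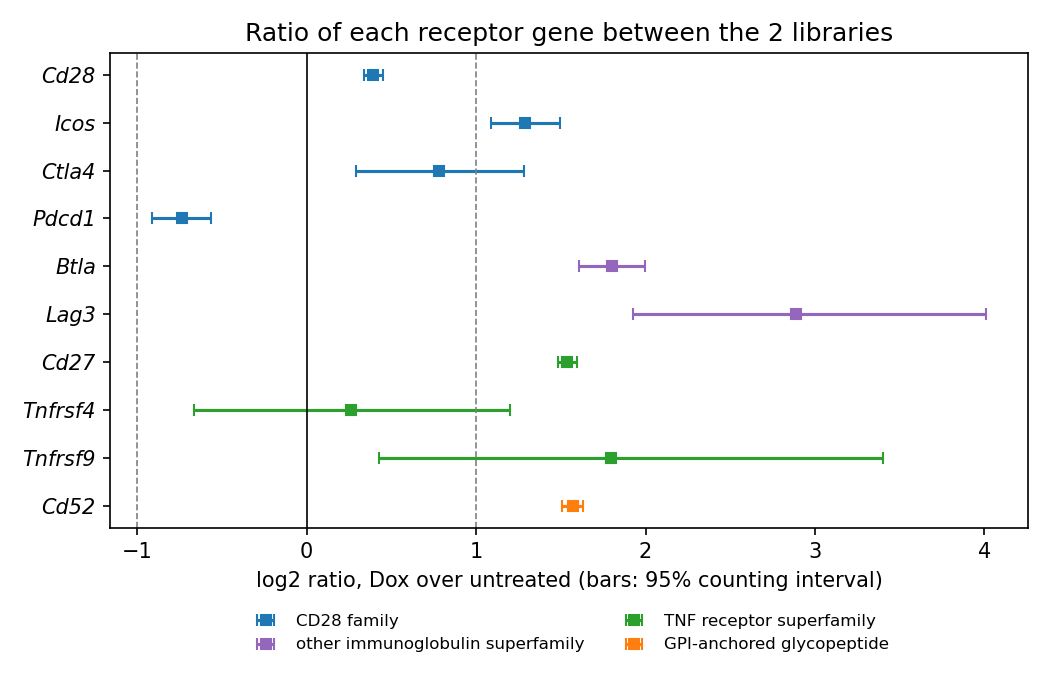
Ratio of Dox over untreated for each receptor gene on a log2 axis, without a prior count, with its 95% counting interval and colours by protein family; dashed lines mark 2-fold in either direction. The intervals of Cd27 and Cd52 overlap each other closely, those of Lag3, Tnfrsf9 and Tnfrsf4 are wide, and Pdcd1 lies left of 0.

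Scaled for the deposited gene length, as reads per kilobase and 1e6 counts (RPKM), the receptor genes spanned more than 3 orders of magnitude. In the Dox library the order from high to low was Cd52 (943.6 RPKM), Cd27 (369.0), Cd28 (76.6), Btla (18.1), Pdcd1 (13.6), Icos (12.85), Ctla4 (2.97), Lag3 (2.16), Tnfrsf4 (1.22) and Tnfrsf9 (0.55). In the untreated library Cd52 (317.8 RPKM), Cd27 (127.0) and Cd28 (58.3) also led, followed by Pdcd1 (22.7), Icos (5.26), Btla (5.20), Ctla4 (1.73), Tnfrsf4 (1.01), Lag3 (0.293) and Tnfrsf9 (0.158). Next after Cd28 came Btla with Dox and Pdcd1 without. Counting intervals of the level overlapped between Pdcd1 and Icos in the Dox library and between Icos and Btla in the untreated library, and between several neighbours below them, so these places in the order are not resolved.

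The summed level of the 10 genes was 1441 RPKM in the Dox library and 539.5 RPKM in the untreated library. Cd52 made up 65.5% of the sum with Dox and 58.9% without, and Cd27 25.6% with Dox and 23.5% without. The share of the CD28 family was 7.36% in the Dox library and 16.3% in the untreated library. The summed level of that family in RPKM was nevertheless higher in the Dox library than in the untreated library. The inhibitory receptors Ctla4, Pdcd1, Btla and Lag3 together made up 2.56% of the sum in the Dox library and 5.55% in the untreated library, with summed levels of 36.8 RPKM with Dox and 29.9 RPKM without. These shares describe transcripts of 10 named genes and not protein on the cell surface.

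Ikaros binds DNA through zinc fingers that recognise a core of GGGAA, so the promoter windows of the receptor genes were searched for it on both strands. The RefSeq promoter table of GRCm38.p6 (250 bases before to 50 after a start site) held 7 windows for 6 of the genes: Ctla4, Pdcd1, Tnfrsf9 (both of its start sites), Tnfrsf4, Cd27 and Btla. Windows for Cd28, Lag3, Icos and Cd52 were not analysed here. Those of Cd27 and Btla, which were both higher in the Dox library, and of Pdcd1, which was lower, are shown with matches to GGGAA or its reverse complement TTCCC in capitals. The Cd27 window is chr6:125236978-125237277 (minus strand), the Btla window chr16:45224087-45224386 (plus strand) and the Pdcd1 window chr1:94052504-94052803 (minus strand), each printed 5′ to 3′ on the strand of the gene.
Cd27: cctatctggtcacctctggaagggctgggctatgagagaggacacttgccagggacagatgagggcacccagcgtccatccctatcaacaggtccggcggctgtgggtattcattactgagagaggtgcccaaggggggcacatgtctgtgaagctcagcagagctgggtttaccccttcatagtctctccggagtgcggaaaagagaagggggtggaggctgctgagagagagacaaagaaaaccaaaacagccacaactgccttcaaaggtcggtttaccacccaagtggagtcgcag
Btla: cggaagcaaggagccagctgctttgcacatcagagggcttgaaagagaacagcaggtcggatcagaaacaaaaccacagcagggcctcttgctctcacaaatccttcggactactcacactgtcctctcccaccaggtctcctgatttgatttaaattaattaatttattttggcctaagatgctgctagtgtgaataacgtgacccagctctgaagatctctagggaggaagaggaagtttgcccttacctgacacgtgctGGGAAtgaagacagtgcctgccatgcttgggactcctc
Pdcd1: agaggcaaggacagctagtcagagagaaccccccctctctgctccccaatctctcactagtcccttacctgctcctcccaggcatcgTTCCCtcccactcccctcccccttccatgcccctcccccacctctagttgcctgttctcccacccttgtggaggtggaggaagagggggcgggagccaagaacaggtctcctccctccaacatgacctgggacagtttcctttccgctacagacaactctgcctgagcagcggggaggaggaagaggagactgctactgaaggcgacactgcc

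Cd27 had 0 matches and Btla 1, at an offset of 12 bases from the start site of its window and inside the longer form TGGGAA. The whole Btla window lies downstream of the gene start given above (chr16:45223705), and the sequence before that start was not searched. Pdcd1 had 1 match, on the opposite strand at an offset of -163 bases. Across the 7 windows, 5 held GGGAA and 2 held TGGGAA, while 62.7% of all 32851 RefSeq promoters held the first and 25.6% the second. The core is thus common in windows of this length, it was found for genes with either direction of difference and was missing for Cd27 and Ctla4, both on the higher side. A match is a string of letters and not a binding site, and no binding data were analysed here.

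Related receptors were mostly higher in the Dox library as well. On a list of other costimulatory receptors, 16 genes were tested, of which 10 were past 2-fold upward and 1 downward, with a median log2 fold of 1.12, beside -0.01 for all tested genes. Of the 15 with 1 CPM or more in the untreated library, 9 were past 2-fold upward (median 1.07). For this list and those below, the shares of all tested genes were 13.6% upward and 13.0% downward. Among genes with 1 CPM or more in the untreated library they were 9.67% and 13.8%. Cd226, an activating receptor for nectin-like ligands, was at 106.1 CPM in the Dox library and 34.7 CPM in the untreated library. Cd44, an adhesion receptor of activated T cells, had 117 counts with Dox and 32 without. Cd40lg, the CD40 ligand of helper T cells, had 51 counts in the Dox library and 0 in the untreated library. The ratio was 17.7 when the untreated count is set to a floor of 3, and the counting interval starts at 13.9. Cd40lg passed the filter through the Dox library alone and so had to be higher there. The 1 gene past 2-fold downward was Tnfrsf8, which encodes the TNF receptor family member CD30. Tnfrsf8 had 53 counts in the Dox library and 1057 in the untreated library, 19.1-fold lower (ratio 0.0523, interval 0.0389 to 0.0689). Cd81 was also lower, within 2-fold, at 100.3 CPM with Dox and 125.7 CPM without (ratio 0.798, interval 0.748 to 0.852). Tnfrsf18, which encodes the costimulator GITR, was at 30.5 CPM with Dox and 14.5 CPM without.

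On a list of other inhibitory receptors, 13 genes were tested, with 9 past 2-fold upward and 0 downward (median log2 fold 1.43). As many as 4 of the 13 passed the filter through the Dox library alone. These were Tigit, a receptor that shares ligands with Cd226, with 155 counts in the Dox library and 5 in the untreated library, and Havcr2 (TIM-3), Pirb and Cd244a, which had 59, 40 and 34 counts with Dox and 0 each without. Among the 9 genes with at least 1 CPM in the untreated library, 5 were past 2-fold upward and the median log2 fold was 1.04. Vsir, which encodes the inhibitory protein VISTA, was at 239.8 CPM in the Dox library and 47.5 CPM in the untreated library, with a log2 fold of 2.33.

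**Figure D3:**
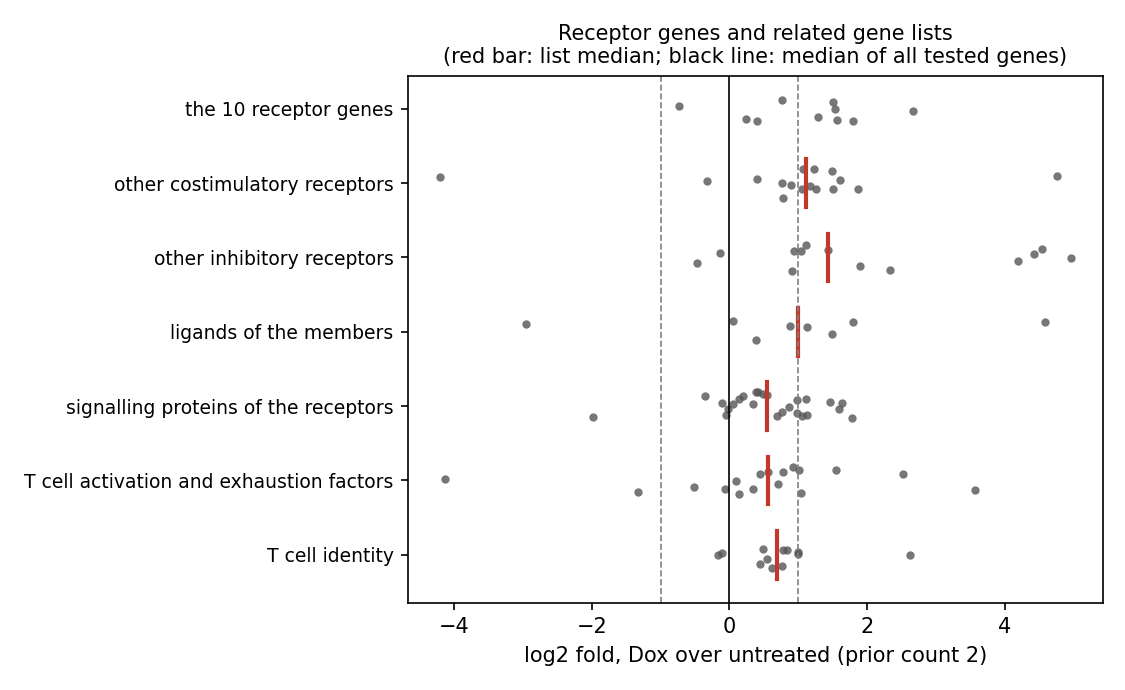
Log2 fold of Dox over untreated (prior count of 2) for the 10 receptor genes and for the tested genes of 6 related lists, 1 point per gene, with red bars at list medians, dashed lines at 2-fold and a black line at the median of all tested genes. Most points lie right of the black line, and Tnfrsf8, Tnfsf9, Siva1 and Il2ra are the genes farthest to the left in their lists.

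The listed ligands of these receptors were scarce. The list leaves out the MHC class II genes, whose products bind Lag3. Cd70, the ligand of Cd27, and Tnfsf4, the ligand of Tnfrsf4, had 0 counts in both libraries, for which a floor of 3 counts allows up to 0.183 CPM in the Dox library and 0.176 CPM in the untreated library. Of 8 tested ligand genes, 4 were past 2-fold upward and 1 downward, and of the 6 with 1 CPM or more in the untreated library, 2 and 1 (median log2 fold 0.63). Cd274, which encodes the PD-1 ligand PD-L1, was at 17.3 CPM in the Dox library and 7.85 CPM in the untreated library. Tnfrsf14, which encodes the Btla ligand HVEM, had 152 counts with Dox and 55 without, a log2 fold of 1.49. Cd86, a ligand of Cd28 and Ctla4 typical of dendritic cells, had 68 counts in the Dox library and 1 in the untreated library, and Icosl had 38 with Dox and 10 without. Both Cd86 and Icosl passed the filter through the Dox library alone and so had to be higher there. Tnfsf9, the ligand of Tnfrsf9, had 4 counts with Dox and 46 without, 11.0-fold lower (ratio 0.0906, interval 0.0237 to 0.248).

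Inside the cell, the signalling proteins of the receptors differed less. All 25 listed genes were tested, 7 were past 2-fold upward and 1 downward, and the median log2 fold was 0.54. Prkcq, the kinase PKC-theta that acts downstream of Cd28, was at 825.9 CPM in the Dox library and 266.6 CPM in the untreated library (log2 fold 1.63). Traf1, an adaptor of TNF receptor family members, had 64 counts with Dox and 18 without. Siva1, which encodes a protein that binds the tail of Cd27, went the other way, with 177 counts in the Dox library and 736 in the untreated library (log2 fold -1.98).

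Receptors of this kind are also carried by cells other than leukemia cells, and many markers of such cells were higher in the Dox library. Of 13 dendritic cell markers, 9 were under 1 CPM in the untreated library, and those 9 summed to 49.3 CPM in the Dox library and 1.11 CPM in the untreated library. Because these 9 were picked by a low untreated level, their low untreated sum follows from that choice. Clec9a had 129 counts with Dox and 0 without, Siglech 101 with Dox and 0 without, Xcr1 165 with Dox and 5 without, and Itgax 179 with Dox and 2 without. The other 4 markers of that list, Ccr9, Bst2, Ly6d and Tcf4, were above 1 CPM in both libraries, with 1 past 2-fold upward, 1 downward and a median log2 fold of -0.01. Ccr9 was at 1865 CPM in the Dox library and 506.8 CPM in the untreated library, Ly6d at 73.0 CPM with Dox and 290.8 CPM without, Bst2 at 121.6 CPM with Dox and 112.8 CPM without, and Tcf4 at 4.46 CPM with Dox and 4.92 CPM without. Over all 13 genes the sums were 2114 CPM with Dox and 916.4 CPM without, and 0 genes were at 0 counts in the Dox library and 6 in the untreated library. The other 6 tested genes of the list passed the filter through the Dox library alone and had to be higher there.

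Of the macrophage and monocyte markers, 6 had 1 CPM or more in the untreated library, and all 6 were past 2-fold upward (median log2 fold 2.26). The other 10 tested markers, also past 2-fold, passed the filter through the Dox library alone. The 18 genes of that list summed to 365.9 CPM in the Dox library and 75.6 CPM in the untreated library, with Itgam at 181.0 CPM with Dox and 60.6 CPM without and Mpeg1 at 96.8 CPM with Dox and 1.64 CPM without. Marco was at 0 counts in both libraries, and Cd14 had 0 in the untreated library. The 11 B cell markers summed to 5.50 CPM in the Dox library and 0.996 CPM in the untreated library, with 10 of them under 1 CPM in the Dox library. Natural killer markers summed to 28.8 CPM with Dox and 49.4 CPM without, of which Il2rb, which T cells also express, made up 21.3 CPM with Dox and 48.9 CPM without. The other 9 markers summed to 7.45 CPM in the Dox library and 0.527 CPM in the untreated library, where all 9 were under 1 CPM. Prf1 had 39 counts with Dox and 0 without, Klrk1 28 with Dox and 0 without, and Nkg7 28 with Dox and 2 without. Prf1, Klrk1 and Nkg7 passed the filter through the Dox library alone and so had to be higher there. Dendritic cells, macrophages, natural killer cells and T cells of the host are known to carry several of the receptors described here, in particular Btla, Lag3, Cd52, Havcr2, Pirb and Cd86. The part of these cells in the differences of the receptor genes was not tested.

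**Figure D4:**
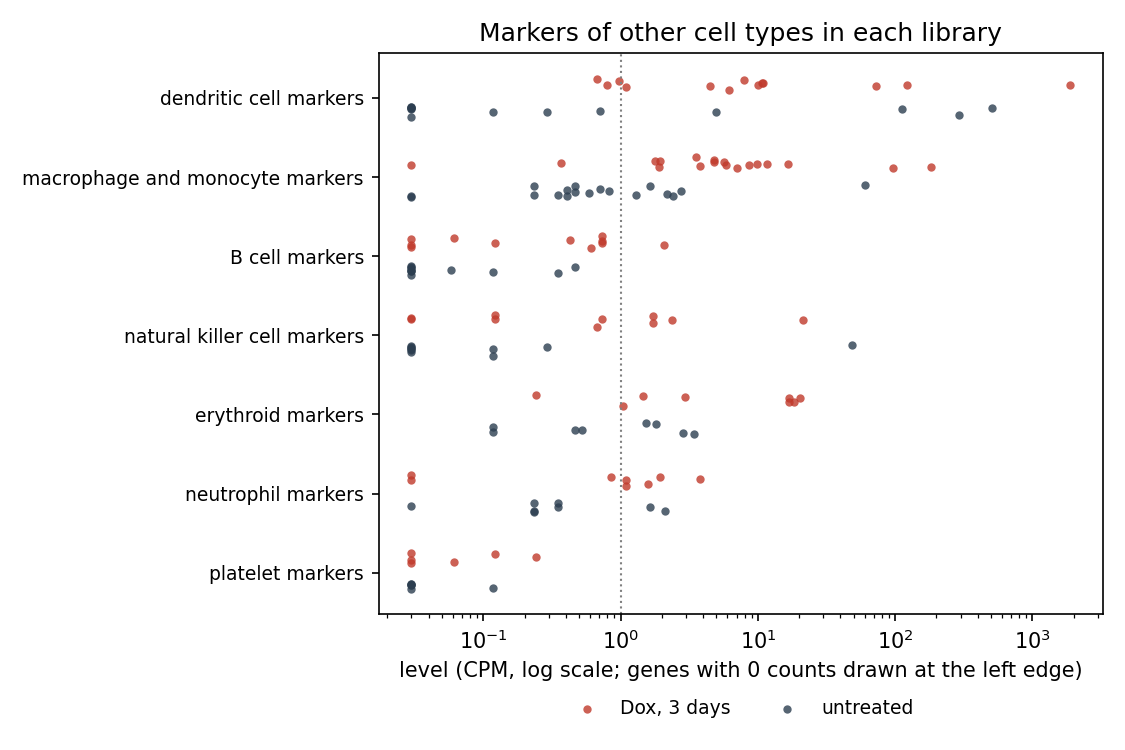
Level in CPM (log axis) of each marker gene of 7 other cell types in the Dox library (red, upper points) and the untreated library (dark, lower points); genes with 0 counts are drawn at the left edge and the dotted line marks 1 CPM. Dendritic cell, macrophage and erythroid markers lie mostly right of 1 CPM in the Dox library, B cell and platelet markers mostly left of it in both libraries.

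Factors of T cell activation and exhaustion were mixed. Of 17 tested, 5 were past 2-fold upward and 2 downward (median log2 fold 0.56), and of the 14 with 1 CPM or more in the untreated library, 3 and 2 (median 0.50). Of all tested genes, 13.6% were past 2-fold upward and 13.0% downward, and with 1 CPM or more untreated 9.67% and 13.8%. The downward counts of the list lay near those shares. Nr4a3, an early response factor, had 67 counts in the Dox library and 4 in the untreated library, and Bach2, a repressor of effector genes, 354 with Dox and 125 without. Foxp3, the defining factor of regulatory T cells, which carry Ctla4, Icos and Tnfrsf4 at high levels, had 37 counts with Dox and 5 without, and the part of such cells was not tested. Nr4a3 and Foxp3 passed the filter through the Dox library alone and so had to be higher there. Il2ra was at 3.30 CPM in the Dox library and 59.6 CPM in the untreated library. Tox, a factor of exhausted T cells, was within 2-fold, at 91.2 CPM in the Dox library and 83.0 CPM in the untreated library.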

How the data were processed

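For each Entrez gene the authors deposited a raw read count and a gene length. The tools named are CASAVA 1.8.2 and featureCounts, and the build is mm10 (GRCm38), per the submitters' processing notes. No source used here gives the aligner, strand setting or annotation. Symbols came from a RefSeq table of GRCm38.p6 for 25275 of 27179 genes.

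Counts were scaled by TMM in edgeR 4.0.16 (R 4.3.3; factors 0.994 for Dox and 1.007 for untreated). Log2 folds carry a prior count of 2; CPM, RPKM and ratios carry none. Genes that reached 1 CPM in either library were called tested, although no replicated test was possible and the planned edgeR test was not run. Intervals are exact Clopper-Pearson 95% intervals, or conditional odds ratio intervals for pairs of genes, from scipy 1.17.1 under Python 3.11.15. Calculations were tested on simulated data.

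The members and the 14 lists were chosen with earlier results of these data known. Named genes are the receptor genes, Ikzf1, neighbouring genes and up to 4 genes per list with the largest absolute log2 fold. The 2 most abundant markers of other cell types are also named. Cd274, Vsir, Tox, Cd70, Tnfsf4, Pax5, Ebf1, Marco, Cd14, Bst2, Tcf4 and Cd81 were named after their values were seen. List medians need at least 4 tested genes. Alternatives were scaling by totals, DESeq2 1.42.0 size factors or upper quartiles, a prior count of 0.5 or 5, 3 other filters, thinning, totals without certain genes, and other thresholds. Protein sequences were not used here. Some listed genes are not reported here.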

Additional observations from a re-analysis of the deposited data

How the results depend on the processing

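Over scaling, prior count, filter, thinning and totals, every log2 fold of the receptor genes kept its sign and stayed within its counting interval: Cd27 ranged from 1.52 to 1.56, Btla from 1.77 to 1.82, Pdcd1 from -0.76 to -0.71, and the low-count genes Lag3 and Tnfrsf9 from 2.39 to 2.83 and from 1.23 to 1.71. Under the filters of 5 CPM and of mean CPM, receptor genes under the filter have no value. The order by RPKM was the same with the longest coding transcript as length. Of 653 alternative values, 586 stayed within a set margin of the main value and 67 moved beyond it. Counts and medians printed below for an alternative are only those that moved. A list left out there did not necessarily hold 0 genes. A change of direction could be seen only for the 106 log2 folds of receptor genes and the 128 list medians. It occurred in 0 of either, and counts of genes have no direction to change.

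At a 4-fold threshold, 1 receptor gene was higher, Lag3, which passed the filter through the Dox library alone and so had to be higher there. At that threshold 541 of the 12125 tested genes were higher and 372 lower. The lists then held 1 (costimulatory), 5 (inhibitory), 1 (ligands), 0 (signalling), 2 (activation factors), 1 (T cell identity), 1 (regulatory T cell) and 1 (neutrophil) genes higher, and 0 (signalling), 1 (activation factors), 0 (dendritic cell), 0 (natural killer) and 1 (regulatory T cell) lower. With intervals wholly beyond 2-fold, 1016 genes were lower in the whole table, and 2 ligands, 3 activation factors, 1 identity, 1 regulatory T cell and 1 neutrophil gene higher. With a filter of 1 count, 2993 genes were higher, as were 5 B cell, 6 natural killer and 1 platelet marker, 1 neutrophil marker was lower, and medians were 3.20 (dendritic cell), 1.43 (natural killer) and 0.41 (regulatory T cell).

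With a filter of 5 CPM, 1091 genes were higher, with 5 inhibitory receptors, 2 ligands, 3 activation factors, 9 macrophage, 0 B cell, 0 natural killer, 1 regulatory T cell, 4 erythroid and 0 neutrophil genes, 0 ligands were lower, and medians were 1.07 (inhibitory), 0.87 (ligands), 4.18 (dendritic cell), 0.29 (regulatory T cell) and 3.01 (erythroid). With mean CPM as filter, 1 natural killer and 1 neutrophil marker were higher, and medians were 3.72 (dendritic cell) and 2.77 (erythroid). A prior count of 0.5 gave medians of 4.42 (dendritic cell), 2.72 (macrophage), 4.71 (natural killer), 2.81 (erythroid) and 1.57 (neutrophil), and one of 5 gave 2.84, 2.41, 2.51, 2.20 and 1.10 and 1.32 for inhibitory receptors. Total-count and DESeq2 scaling, and totals without abundant classes, left 1 T cell identity gene higher, the last with a dendritic cell median of 3.35. Thinning gave an erythroid median of 2.49. The motif TGGGAA was in 25.6% of promoters.

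No paired analysis was possible because each condition has 1 library. Depth limits Tnfrsf4, Tnfrsf9, Lag3 and Ctla4, all under 10 CPM in both libraries, and the intervals leave out differences between animals.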

Other observations

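Genes next to the receptor genes did not share one pattern. On either side of Lag3, Ptms, which encodes parathymosin, was at 252.6 CPM in the Dox library and 100.4 CPM in the untreated library (log2 fold 1.33), and Cd4, the coreceptor for MHC class II, at 658.5 CPM with Dox and 368.6 CPM without (log2 fold 0.84). Tapbpl, an MHC class I chaperone gene that ends 760 bases from Cd27, was at 132.0 CPM with Dox and 51.1 CPM without (log2 fold 1.37). Atg3, an autophagy gene beside Btla, was at 87.4 CPM with Dox and 85.3 CPM without, a log2 fold of 0.03 with an interval of -0.07 to 0.14, while Cd200, an inhibitory ligand gene on its other side, had 231 counts with Dox and 149 without. Park7, on one side of Tnfrsf9, was at 181.8 CPM in the Dox library and 322.4 CPM in the untreated library, and Per3, a clock gene on the other side, had 18 counts with Dox and 8 without. Beside Tnfrsf4, B3galt6, a glycosyltransferase gene, was at 8.79 CPM with Dox and 19.5 CPM without. Beside Pdcd1, Neu4 had 0 counts in both libraries.

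Genes of the regulatory T cell list diverged. Of 6 tested, 2 were at least 2-fold higher, Tnfrsf18 and Foxp3, which passed the filter through the Dox library alone, and 2 at least 2-fold lower, Il2ra and Nrp1, the last with 23.3 CPM in the Dox library and 63.1 CPM in the untreated library. Ikzf2, which encodes the Ikaros relative Helios, was at 205.8 CPM with Dox and 109.0 CPM without. Cd7, a surface protein of T and natural killer cells, had the highest log2 fold of the T cell identity list at 2.63, with 236.4 CPM in the Dox library and 38.2 CPM in the untreated library. Of the erythroid markers, 4 had 1 CPM or more in the untreated library and all 4 were past 2-fold upward, with Hba-a2 at 20.3 CPM with Dox and 2.87 CPM without. Of 2 neutrophil markers with 1 CPM or more in the untreated library, 0 were past 2-fold in either direction, and 3 others passed the filter through the Dox library alone, and 0 of 6 platelet markers were tested.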
